A study of Mus musculus with 8 samples.

Results

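The genes examined here are the ribosomal protein genes of the mouse, taken from the NCBI RefSeq gene table of GRCm38.p6 by symbol. The rule takes protein-coding autosomal genes whose symbol is Rpl or Rps with digits and at most a letter a, x or l and a further digit, together with Rplp0, Rplp1, Rplp2 and Rpsa. It found 80 of the 20665 autosomal protein-coding genes, 31 of the small and 49 of the large subunit, and 4 further genes with such symbols lie on the X chromosome and were left out. Each gene was given the peaks of 4 lists that overlap it or whose summit lies within 1 kb of either of its ends. The members were short, with a median annotated length of 3206.5 bp (592 to 11774 bp) against 17491 bp for all autosomal protein-coding genes.

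The study profiled CTCF and the cohesin subunit Smc3 by chromatin immunoprecipitation and sequencing in JM8.N4, a mouse embryonic stem cell line cultured in medium with serum and LIF and no feeder cells. The wild-type cells (WT) carry untagged proteins. C59 is a single clone of the same line in which both endogenous copies of CTCF bear FLAG and Halo tags (FLAG-Halo-CTCF) and both copies of the cohesin subunit Rad21 bear SNAPf and V5 tags (Rad21-SNAPf-V5). Each line has 1 CTCF and 1 Smc3 library with a peak list; inputs and IgG controls were not used here. With 1 library per line and protein no difference between the lines was tested, and the 95% intervals given are exact Clopper-Pearson intervals that cover counting error only.

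Ribosomal proteins assemble with ribosomal RNA into the small subunit, which reads the messenger RNA, and the large subunit, which joins the amino acids. Their genes are among the most highly transcribed protein-coding genes of dividing cells, and many of their messenger RNAs begin with a run of pyrimidines through which their translation is controlled together. Cohesin is a ring-shaped complex that holds DNA loops and sister chromatids, and on mammalian chromosomes it is found mostly where the DNA-binding protein CTCF stops it. An Smc3 peak that overlaps no CTCF peak of the same line is called here a peak without CTCF.

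For CTCF the authors listed 98759 peaks in WT and 82227 in C59, and for Smc3 47281 and 25734. Depth, strength of the immunoprecipitation and cell line cannot be told apart as sources of these numbers. The fold enrichment quoted for a peak is the authors' ratio over local background, and it describes strength within a list only. A gene without a peak had none above the authors' threshold. The local background at the peaks of chromosomes 1, 8 and 11 was up to 1.5 times that of the other chromosomes in a list, and 12 members lie there.

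Smc3 without CTCF was found at many ribosomal protein genes. In WT cells 30 of 80 members had such a peak (37.5%, 26.9 to 49.0%), where 5.98% of all autosomal protein-coding genes did. In C59 cells 34 of 80 did (42.5%, 31.5 to 54.1%), where 1.98% of all genes did. In both lines 25 members had it (31.3%, 21.3 to 42.6%), against 1.27% of all genes. Of the 8163 genes no longer than the longest member, called shorter genes below, 4.83% had such a peak in WT and 2.94% in C59. The peaks at members were 39 of the 2258 autosomal WT Smc3 peaks without CTCF and 44 of the 537 in C59, or 8.19% of that list. The WT count rests on weak peaks. Every list was then cut to the length of the shortest, the 25734 peaks with the lowest p-values. In WT 5 members then had an Smc3 peak without CTCF, among them Rpl10a, Rpl13a, Rps18 and Rps26. That share of 6.25% was below the 9.81% of all genes. In C59 cells 38 had it, against 11.0% of all genes. The C59 Smc3 list is itself the shortest and stayed whole, so its count could not fall and is no like comparison with WT. That restriction shortens the CTCF lists as well, which turns peaks with CTCF into peaks without it.

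**Figure D1:**
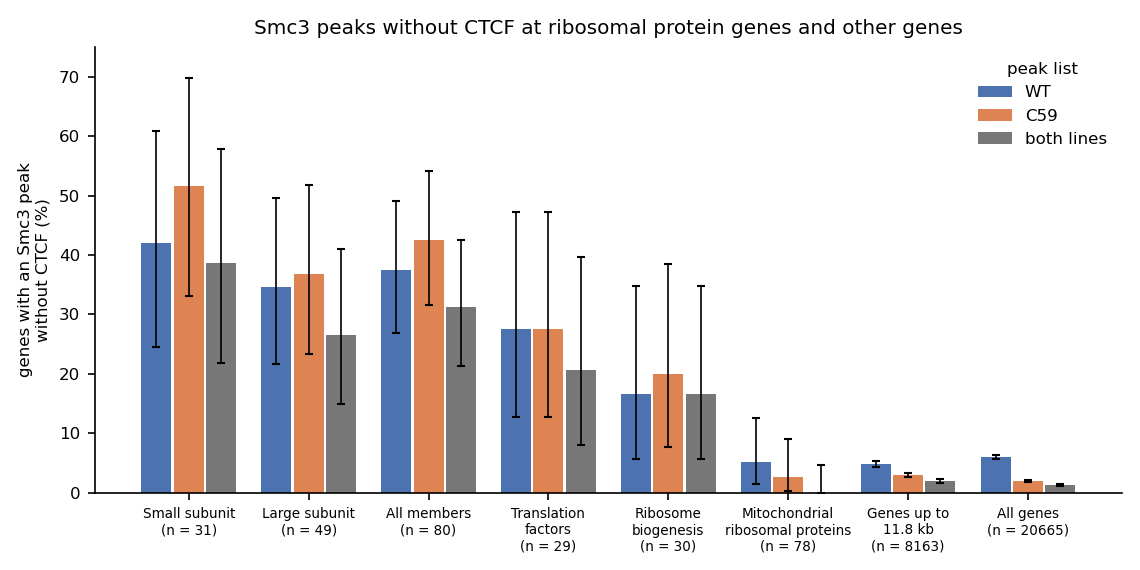
Percentage of genes with an Smc3 peak without CTCF in the WT list, in the C59 list and in both, for ribosomal protein genes by subunit, for other genes of the pathway and for all autosomal protein-coding genes; whiskers are exact 95% intervals for counting error. The bars of the small subunit reach 41.9% in WT and 51.6% in C59, those of all genes 5.98% and 1.98%.

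Counted over all peaks, CTCF lay at 50 of 80 members in WT (62.5%, all genes 70.1%, shorter genes 45.1%). In C59 it lay at 46 (57.5%, all genes 66.4%, shorter genes 40.6%). Smc3 of either kind lay at 49 members in WT (61.3%, all genes 52.4%, shorter genes 28.6%). In C59 it lay at 47 (58.8%, all genes 36.2%, shorter genes 17.5%). Smc3 with CTCF was found at 34 members in WT (42.5%, all genes 50.7%, shorter genes 25.8%). In C59 it was found at 20 (25%, all genes 35.0%, shorter genes 15.2%). For CTCF and for Smc3 with CTCF the members thus lay below all genes but above shorter genes. Smc3 of either kind was found in both lines at 41 members (51.3%, all genes 35.7%, shorter genes 16.7%). Peaks in all 4 lists were found at 29 members (36.3%, all genes 35.2%, shorter genes 15.5%), and 14 had none (17.5%, all genes 28.5%, shorter genes 52.3%): Rpl10l, Rpl14, Rpl21, Rpl22l1, Rpl28, Rpl30, Rpl32l, Rpl39l, Rpl6, Rpl7, Rpl8, Rplp1, Rps27 and Rps27l. Of the 29 members without CTCF in either line, 12 had Smc3 in WT, 14 in C59 and 11 in both. Of all 6087 genes without CTCF in either line, 2.63% had Smc3 in WT, 1.77% in C59 and 1.26% in both.

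The peaks were also followed from WT to C59. Of the 30 members with Smc3 without CTCF in WT, 25 had it in C59 (83.3%), and of all 1235 genes with such a peak in WT 21.2% did, or 41.1% of the 394 shorter ones. Of the 34 members with Smc3 with CTCF in WT, 20 had it in C59 (58.8%). The share was 68.5% of all such genes and 57.6% of the 2105 shorter ones. Counted by peak, 27 of the 39 WT Smc3 peaks without CTCF at members overlapped a C59 Smc3 peak (69.2%, 52.4 to 83.0%), compared with 14.3% of that whole class. For summits near the far end of genes with a listed strand the shares were closer, at 14 of 19 for members (73.7%, 48.8 to 90.9%), 59.8% for shorter genes and 47.8% for all genes. In the other direction 33 of the 44 C59 peaks were found in WT (75%), compared with 63.3% of their class.

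Among small-subunit genes, 13 of 31 had Smc3 without CTCF in WT, 16 in C59 and 12 in both. Rps18, whose protein sits in the head of the small subunit, led them. The gene lies at chr17:33951998-33955665 on the minus strand. Its peak past the end of the gene had a fold of 7.93 in WT and 9.69 in C59, the highest of any member's Smc3 peak without CTCF in either list, with summits 392 and 372 bp past the end. CTCF at this gene was listed in WT alone, with folds of 3.39 and 4.02.

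Rps12, a small-subunit protein gene at chr10:23785183-23787383, had 3 WT Smc3 peaks without CTCF, of fold 4.35, 2.32 and 2.88, at 126 and 630 bp after the start and 27 bp past the end. In C59 it had 2, of fold 4.16 at 810 bp after the start and 7.63 at 947 bp past the end, the latter 2604 bp wide. Rps12 therefore carried Smc3 without CTCF near both ends in both lines, and no CTCF peak in either. Rps2, whose protein lies at the messenger RNA entry side of the subunit, had peaks of fold 4.75 in WT and 6.54 in C59, with summits 757 and 737 bp past its end and inside the neighbouring gene Ndufb10. Rps6, the substrate of the growth-controlled S6 kinases, had 5.42 and 4.54 at 750 and 680 bp past its end. Rpsa, the ribosomal protein also known as a laminin receptor, had 4.29 and 4.90 at 547 and 863 bp past its end and a further WT peak of fold 3.67 inside the gene. Rps6 and Rpsa had no CTCF peak in either line.

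Other small-subunit genes with the peak in both lines included Rps25, Rps3a1, Rps9, Rps20 and Rps27a. Rps3a1 combined a strong CTCF peak before its start, of fold 37.3 in WT and 44.1 in C59, with Smc3 without CTCF of fold 2.95 and 5.46 about 500 bp past its end. Rps27a encodes a ribosomal protein fused to ubiquitin and had peaks of fold 3.19 in WT and up to 5.00 in C59. In WT alone the peak was listed at Rps28, with a fold of 3.61. In C59 alone it was listed at Rps21 (4.06), Rps15, Rps23 and Rps24.

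Among large-subunit genes, 17 of 49 had Smc3 without CTCF in WT, 18 in C59 and 13 in both. Rpl10a, at chr17:28328471-28331033, had the highest folds of the subunit, 6.23 in WT and 8.49 in C59, with summits 578 and 596 bp past its end. A CTCF peak of fold 33.1 in WT and 24.5 in C59 lay at its start, 33 bp before it and 3 bp after it. In WT that CTCF peak overlapped an Smc3 peak of fold 6.71, and in C59 no Smc3 peak overlapped it. Rpl12, whose protein forms the base of the ribosomal stalk, had WT peaks of fold 5.52 at 798 bp past the end and 4.64 at 404 bp after the start, and in C59 a single peak, of fold 3.89 at 485 bp after the start. Rpl9 had 4.86 in WT and 3.75 in C59 at 961 and 296 bp past its end, and these peaks did not overlap each other. Rpl36, for which no strand was listed, had 6.95 in C59 and 3.08 in WT, where the local background was 11.0 against 3.70 in C59. Rpl3, a protein close to the peptidyl transferase centre, had CTCF peaks in both lines and Smc3 peaks both with and without CTCF.

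Smc3 without CTCF was listed in WT alone at Rpl35 (fold 4.26), Rpl27a (3.32), Rpl13a (3.30) and Rpl11. It was listed in C59 alone at Rpl23a (5.38), Rpl15 (5.29), Rpl5 (4.07), Rpl41 and Rpl37a. Rpl5 and Rpl11 encode the pair of large-subunit proteins that bind Mdm2 when ribosome assembly fails. At Rpl23a a C59 peak without CTCF overlapped a WT Smc3 peak, so the difference there is in the overlap with CTCF.

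The stalk proteins Rplp0, Rplp1 and Rplp2 recruit the translation factors to the large subunit. Rplp0, at chr5:115559467-115563729, had CTCF of fold 40.1 in WT and 40.8 in C59 before its start and Smc3 without CTCF of fold 3.24 and 5.70 past its end, at 606 and 379 bp. Rplp2 had no CTCF peak and Smc3 of fold 3.78 and 4.39 at 561 and 841 bp past its end. Rplp1 had no peak.

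**Figure D2:**
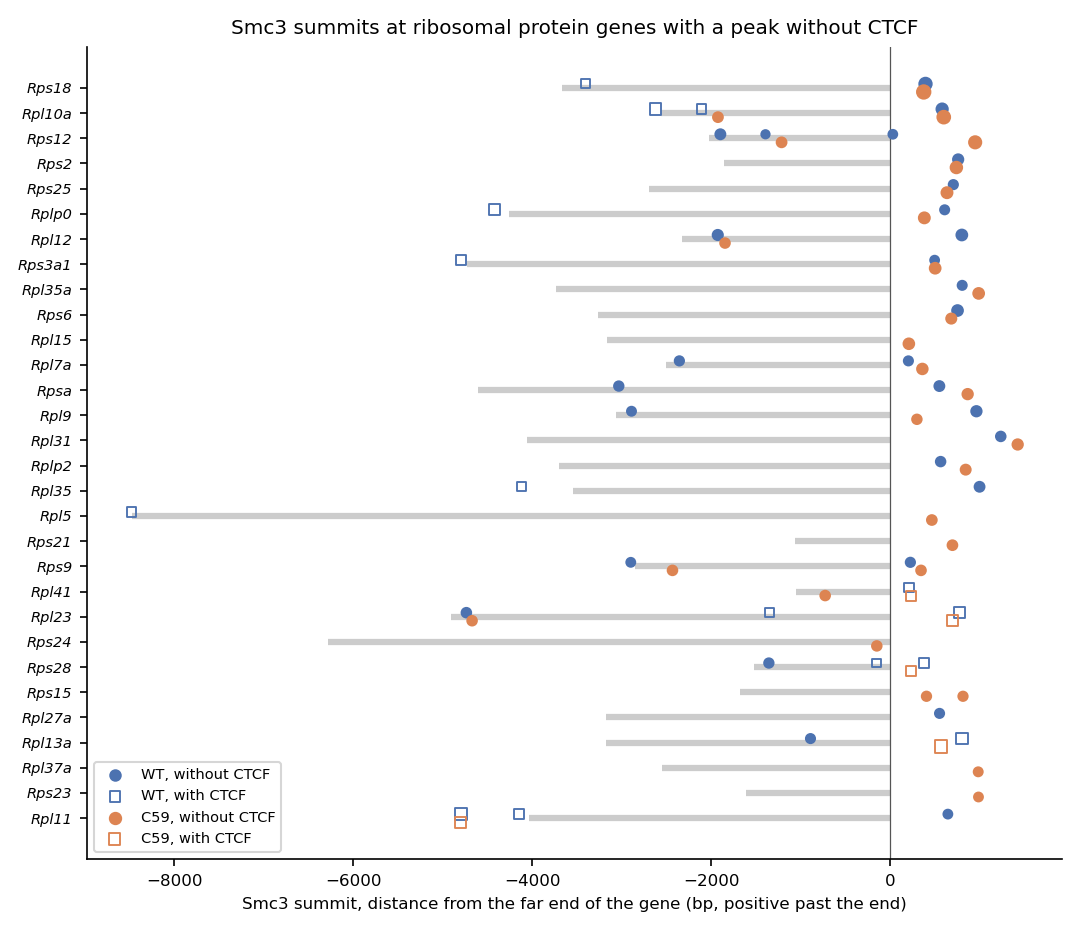
Smc3 summits at the ribosomal protein genes reported here with a listed strand and an Smc3 peak without CTCF in at least 1 line, by distance from the far end of the gene in bp; grey bars span the gene from its listed start, filled circles are peaks without CTCF, open squares peaks with CTCF, and symbols grow with fold. Most filled circles sit past the end, from 27 bp at Rps12 to 1422 bp at Rpl31.

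The peaks without CTCF stood mainly past the far end of the gene, the end at which the transcript finishes. Strand and start site were listed for 60 members. Within 1 kb of the far end, 19 of these 60 had Smc3 without CTCF in WT (31.7%, all genes with a listed start 1.84%), 22 in C59 (36.7%, all genes 1.35%) and 14 in both lines (23.3%, all genes 0.832%). The 19 WT summits placed at that end lay a median of 578 bp past it, and 18 of them were past it rather than inside the gene. In C59 there were 22 such summits, a median of 614 bp past the end, 21 of them past it. By subunit the counts in WT were 8 of 23 small-subunit and 11 of 37 large-subunit genes. In C59 they were 12 of 23 and 10 of 37. Of shorter genes with a listed start, 2.73% had such a peak near the far end in WT, 2.41% in C59 and 1.57% in both. Of 21 translation factors and related genes, a list described below, 7 had it in WT (33.3%), 6 in C59 (28.6%) and 5 in both (23.8%). The trait was thus not particular to ribosomal protein genes.

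Within 1 kb of the start, 7 of 60 members had Smc3 without CTCF in WT (11.7%, all genes 2.31%), 6 in C59 (10.0%, all genes 0.741%) and 4 in both (6.67%, all genes 0.492%), namely Rpl12, Rpl23, Rps12 and Rps9. Of 29 WT summits without CTCF at members, 8 were placed within 1 kb of the start (27.6%) and 19 within 1 kb of the end on either side (65.5%). For all genes the shares were 29.2% at the start and 27.3% at the end, and 47.4% at the end for genes no longer than the longest member. In C59 the end held 22 of 29 (75.9%) at members, 54.3% for all genes and 62.4% for the shorter ones. The intervals for members were 45.7 to 82.1% in WT and 56.5 to 89.7% in C59. Counting only summits past the end, the share was 62.1% for members in WT (42.3 to 79.3%), 35.2% for shorter genes and 18.6% for all genes. In C59 it was 72.4% (52.8 to 87.3%), 50.4% and 39.4%.

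The summits past the end mostly did not lie in another protein-coding gene. In WT 4 of 18 were inside a neighbour (Rpl35, Rpl7a, Rps2 and Rps25) and the median distance to the nearest other protein-coding gene was 936 bp. In C59 5 of 21 were inside a neighbour and the median distance was 1111 bp. Rpl10a and Rps18 have close neighbours, with Tead3 60 bp and B3galt4 118 bp from their WT summits.

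**Figure D3:**
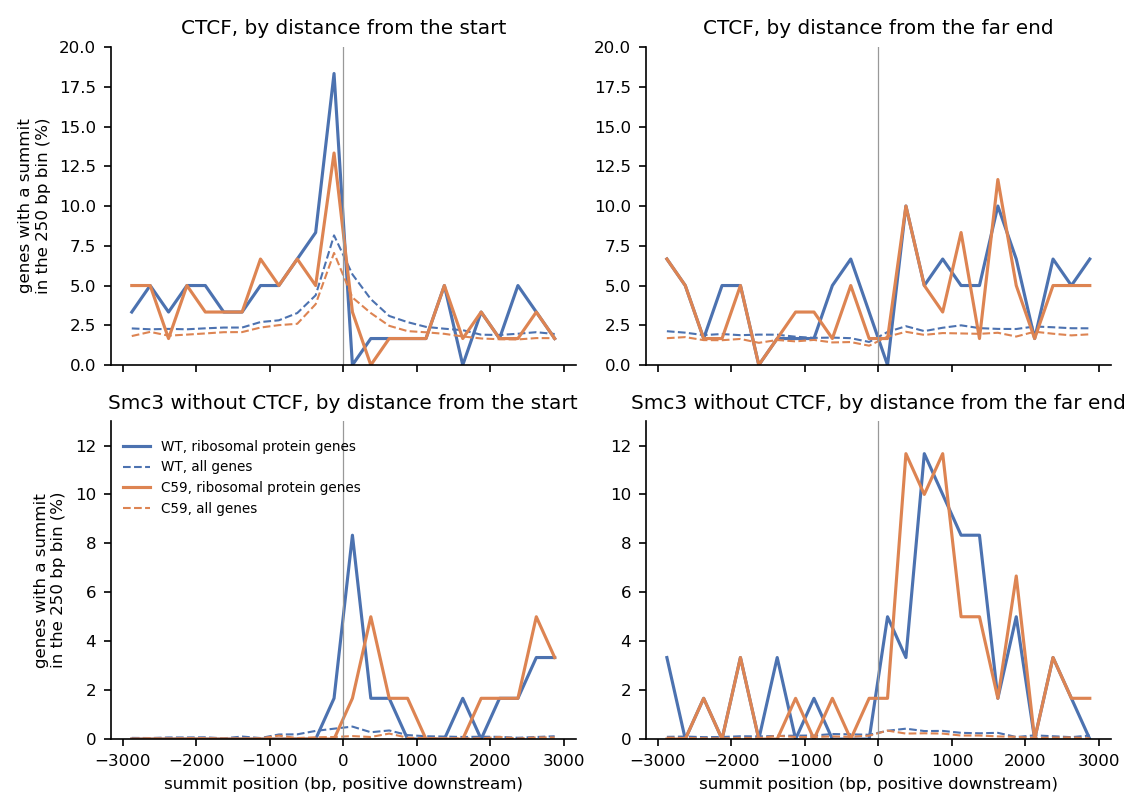
Percentage of genes with a summit in each 250 bp bin around the listed start (left) and the far end (right), for CTCF (top) and Smc3 without CTCF (bottom), in WT (blue) and C59 (orange); solid lines are the 60 ribosomal protein genes with a listed strand and dashed lines the 16457 genes with one. CTCF at members peaked in the bin before the start, at 18.3% in WT and 13.3% in C59. All genes peaked in the same bin, at 8.15% and 7.05%. Smc3 without CTCF at members peaked past the far end, at up to 11.7% of members in a bin. That was from 500 to 750 bp in WT and in the bins starting at 250 and 750 bp in C59.

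CTCF summits at the members lay near the start in 26 of 63 cases in WT (41.3%, shorter genes 36.1%). In C59 22 of 52 did (42.3%, shorter genes 36.4%). Near the far end lay 36.5% in each line, where shorter genes had 22.4% in WT and 22.5% in C59. Within 1 kb of the start, 25 of 60 members had CTCF in WT (41.7%, all genes 31.2%) and 21 in C59 (35.0%, all genes 25.9%). The 26 WT summits had a median position of -181.5 bp (negative before the start), 23 of them before it and 9 of them between 150 and 50 bp before it. Those 9 included Rplp0 at 133 bp, Rpl11 at 131, Rpl38 at 126, Rpl26 at 114, Rpl27 at 113, Rps15 at 112 and Rps3a1 at 111 bp before the start. In C59 the 22 summits had a median position of -132.5 bp. Within 1 kb of the far end, CTCF was found at 21 of 60 members in WT (35.0%, all genes 14.8%) and at 18 in C59 (30.0%, all genes 12.8%).

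Promoter sequences of 60 members and of 16457 genes in all came from RefSeq (GRCm38.p6), 250 bases before to 50 after the start. The CTCF core motif, 12 letters long, was searched on both strands. It was found without mismatch in 1 member promoter, Rplp0 (1.67%, all promoters 0.559%), and with at most 1 mismatch in 4 (6.67%, all promoters 4.79%). Each of these 4 had a strong CTCF peak at the start in both lines. The sites are shown because they place the motif against the summit, in gene direction, with the motif in capitals and 10 bases on either side. At Rpl37 the motif is on the antisense strand, so the capitals are its reverse complement.
Rplp0, chr5:115559280-115559311, plus strand: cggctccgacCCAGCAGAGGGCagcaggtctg
Rpl38, chr11:114668448-114668479, plus strand: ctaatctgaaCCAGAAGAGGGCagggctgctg
Rpl5, chr5:107900455-107900486, plus strand: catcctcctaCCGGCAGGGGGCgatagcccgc
Rpl37, chr15:5116481-5116512, plus strand: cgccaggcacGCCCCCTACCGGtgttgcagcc

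At Rpl38, known for its part in translating Hox messenger RNAs, the motif began 122 bp before the start and the WT and C59 summits lay 126 and 123 bp before it, with folds of 30.7 and 34.3. At Rpl5 the motif began 63 bp and the summits lay 67 and 47 bp before the start, with folds of 25.8 and 17.9. At Rplp0 the motif began 177 bp and the summits lay 133 and 140 bp before the start. At Rpl37 the motif began 122 bp before the start and the summits lay farther upstream, at 265 and 259 bp, so this match was not at the summit. The other members with a CTCF summit near the start had no match of this kind in the window.

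The promoters of Rplp0, which had CTCF, and of Rps12 and Rpl23, which had Smc3 without CTCF within 1 kb after the start in both lines, are shown for contrast. Each runs from 250 bases before the start to 50 after it. Capitals mark the CTCF core motif of Rplp0 and its match to the letters of the TATA box (TATAAA). That match begins 17 bp after the listed start and not before it. Rps12 and Rpl23 held none of the motifs searched within the windows used. In Rps12 the letters CTTTTC begin shortly after the start. They run past the window used for the pyrimidine start, given below, and so were not counted.
Rplp0, chr5:115559217-115559516, plus strand: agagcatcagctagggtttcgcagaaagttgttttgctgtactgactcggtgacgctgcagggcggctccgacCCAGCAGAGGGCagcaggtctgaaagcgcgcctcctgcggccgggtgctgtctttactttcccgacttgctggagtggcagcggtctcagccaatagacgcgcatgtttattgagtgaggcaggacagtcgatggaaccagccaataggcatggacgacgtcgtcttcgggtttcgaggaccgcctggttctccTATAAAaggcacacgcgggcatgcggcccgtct
Rps12, chr10:23787160-23787459, minus strand: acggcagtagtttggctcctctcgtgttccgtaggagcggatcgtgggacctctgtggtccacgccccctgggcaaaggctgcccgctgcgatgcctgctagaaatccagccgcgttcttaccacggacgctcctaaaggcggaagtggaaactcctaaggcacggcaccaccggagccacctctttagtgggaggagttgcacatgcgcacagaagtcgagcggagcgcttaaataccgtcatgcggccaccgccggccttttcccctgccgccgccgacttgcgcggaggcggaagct
Rpl23, chr11:97782390-97782689, minus strand: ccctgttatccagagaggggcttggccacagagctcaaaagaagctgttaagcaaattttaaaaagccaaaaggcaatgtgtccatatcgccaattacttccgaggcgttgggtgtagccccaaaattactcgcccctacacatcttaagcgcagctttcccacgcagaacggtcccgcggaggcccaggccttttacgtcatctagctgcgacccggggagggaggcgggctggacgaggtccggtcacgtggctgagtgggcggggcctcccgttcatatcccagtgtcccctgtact

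At Rpl23 the Smc3 summits without CTCF lay 175 bp after the start in WT and 239 bp in C59, with folds of 3.88 and 3.86. The same gene carried Smc3 with CTCF past its far end, of fold 6.14 and 6.43, so each of its ends had Smc3 but only the far end had CTCF.

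Other motifs, searched in the same windows, gave further counts. The ETS motif CCGGAAG, on either strand, was present in 24 of 60 member promoters (40.0%, all promoters 12.3%), among them Rps18, Rps6, Rps2, Rpsa and Rpl11. A pyrimidine start was CTTTCC or CTTTTC on the sense strand, lying wholly within 10 bases either side of the start. It was present in 10 member promoters (16.7%, all promoters 1.31%), among them Rpl12, Rpl15, Rps10 and Rps27. The YY1 motif AAGATGGC was present in 6 (10.0%, all promoters 3.21%), and the TATA box in 6 (10.0%, all promoters 13.5%). These are matches of letters and not measured sites.

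Whether a CTCF peak of a member carried Smc3 was counted by place and line. Of 26 WT CTCF summits at the start of members, 15 belonged to a peak that overlapped a WT Smc3 peak (57.7%, 36.9 to 76.6%), and of 22 in C59 4 did (18.2%, 5.19 to 40.3%). For all genes the shares were 36.5% and 19.9%, and for shorter genes 41.9% and 25.8%. At the far end 15 of 23 WT CTCF summits (65.2%) and 11 of 19 in C59 (57.9%, 33.5 to 79.7%) carried Smc3. The shares there were 51.2% and 35.5% for all genes, and 49.1% and 34.6% for shorter genes. Inside the gene, more than 1 kb from both ends, members had lower shares. There 2 of 14 WT summits carried Smc3 (14.3%, 1.78 to 42.8%, all genes 40.8%, shorter genes 41.8%). In C59 1 of 11 did (9.09%, 0.230 to 41.3%, all genes 26.2%, shorter genes 25.7%). Of the WT Smc3 peaks with CTCF at the start of members, 4 of 17 were found in C59 (23.5%, 6.81 to 49.9%), compared with 42.7% for all genes. At the far end 13 of 18 were (72.2%), compared with 57.6% for all genes. The WT and C59 intervals at the start overlap and the difference was not tested. Tags, depth and clone cannot be told apart here.

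**Figure D4:**
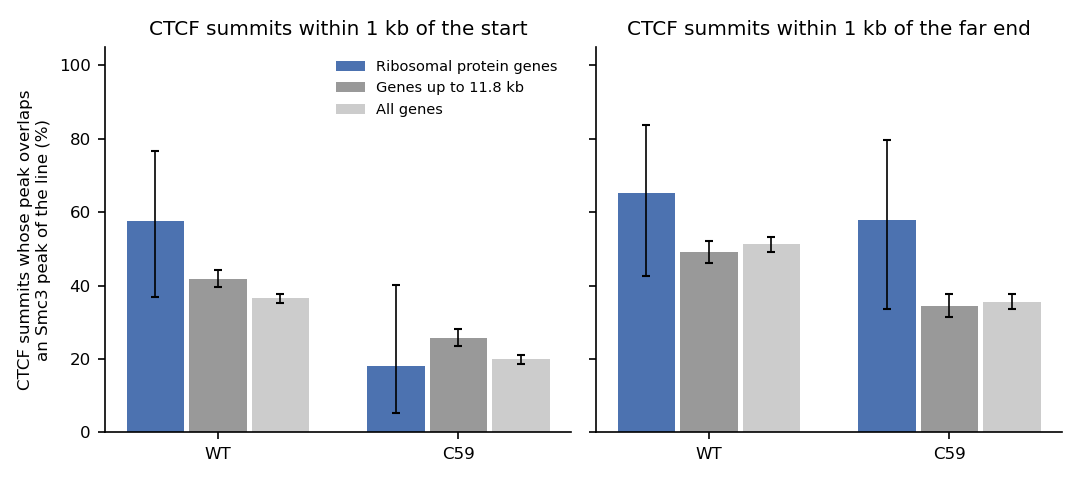
Percentage of CTCF summits within 1 kb of the start (left) and of the far end (right) whose peak overlaps an Smc3 peak of the same line, for ribosomal protein genes, genes no longer than the longest member and all genes; whiskers are exact 95% intervals for counting error. At the start of ribosomal protein genes the bar stands at 57.7% in WT and 18.2% in C59, and at the far end at 65.2% and 57.9%.

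Members with strong CTCF at the start and no Smc3 there in C59 included Rpl26, Rplp0, Rps3a1, Rpl37 and Rpl27. At Rpl10a no C59 Smc3 peak overlapped the CTCF peak, but one without CTCF, of fold 4.15, had its summit 635 bp after the start. At Rpl26 the CTCF fold at the start was 37.9 in WT and 45.0 in C59, and WT Smc3 alone overlapped it. At Rplp0 the WT Smc3 peak with CTCF had a fold of 5.68, and no such peak was listed in C59. Smc3 with CTCF was also listed in WT alone at Rps3 (4.52), past its far end, and at Rps26 (4.41), before its start.

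Smc3 with CTCF in both lines was strongest at Rpl7l1, a paralog of Rpl7, with folds of 14.4 in WT and 10.0 in C59 517 and 466 bp before its start. Rpl22, which lies at chr4:152324436-152334082, followed with 14.1 and 12.1 at -935 and -943 bp from its far end (negative inside the gene), where CTCF had a fold of 37.3 and 63.8. Rpl3 (9.50 and 4.77), Rpl38 and Rpl4, a protein of the exit tunnel (7.62 and 7.04), were also among the 6 members with the highest WT fold. Rpl38 had such peaks at both ends, of fold 8.79 in WT and 3.18 in C59 before its start, and of fold 7.46 and 5.53 past its end. CTCF in both lines, with no Smc3 peak assigned to the gene, was found at 6 members (7.5%, all genes 14.6%), of which Rps14 (WT CTCF fold 29.8), Rps29 (25.1), Rpl24 (21.2) and Rpl3l (17.0) had the highest fold. At Rpl24 a second CTCF peak of WT, of fold 5.47 and 967 bp past the end, did overlap an Smc3 peak whose own summit lay beyond the window of 1 kb. Of the paralogs, Rpl3l, a heart and muscle form of Rpl3, had CTCF without Smc3, Rpl7l1 had both proteins, and Rpl10l, Rpl22l1, Rpl32l, Rpl39l and Rps27l had no peak.

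**Figure D5:**
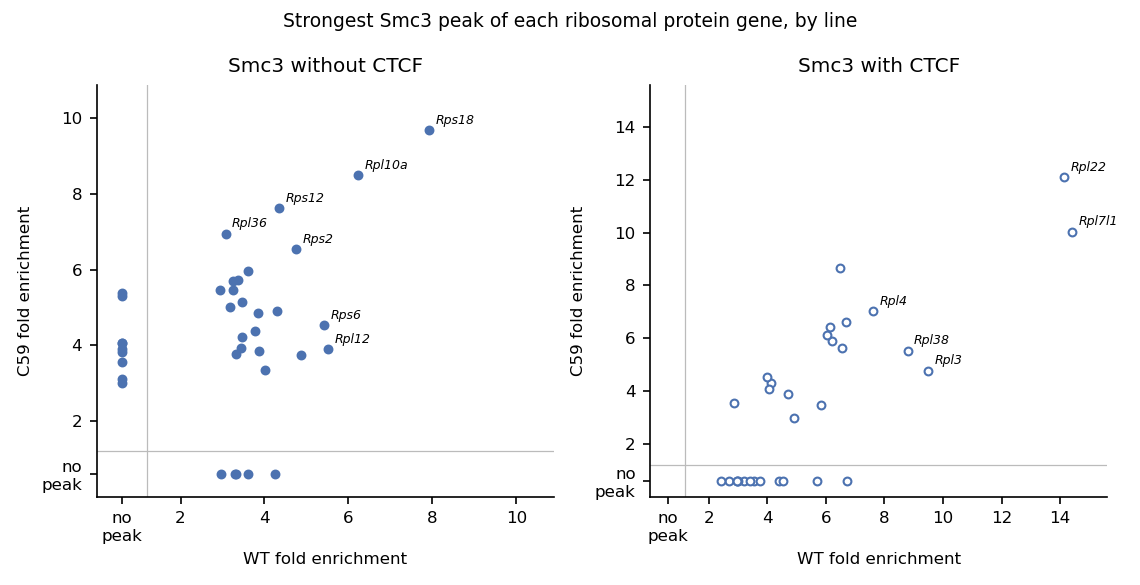
Fold enrichment of the strongest Smc3 peak of each ribosomal protein gene reported here in WT (horizontal) and C59 (vertical), without CTCF (left) and with CTCF (right); genes without a peak in a line lie in the strip marked no peak, and folds of the lines come from lists scaled separately and the strongest peaks of the lines may lie at different places in a gene. Rps18 and Rpl10a stand highest on the left, Rpl7l1 and Rpl22 on the right.

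The members' Smc3 peaks without CTCF were weak within their lists. Their median fold was 3.46 in WT and 4.16 in C59, against 3.32 and 3.89 for all peaks without CTCF and 5.81 and 5.68 for all Smc3 peaks. Their median width was 377 and 530.5 bp, against 318 and 386 bp for the class. The authors' WT pileup at their summits ran from 18 to 54. The median local background under them was 5.93 in WT and 4.87 in C59, against 5.33 and 4.74 for the class, and the part of this background in the result was not tested. Among the 100 strongest peaks without CTCF, 4 in WT and 12 in C59 lay at members. Of the whole class 1.73% in WT and 8.19% in C59 did. The C59 ranks of Rps18, Rpl10a, Rps12, Rpl36 and Rps2 were 16, 22, 34, 45 and 53 of 537.

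Other genes of the translation pathway were counted in the same way. A list of 29 translation factors and related genes was chosen for messenger RNAs that may start with pyrimidines, which was not checked for this list. Of these genes, 8 had Smc3 without CTCF in WT (27.6%), 8 in C59 (27.6%) and 6 in both (20.7%). The shares of all genes were 5.98%, 1.98% and 1.27%. Eef2, the translocation factor, had folds of 7.07 in WT and 12.7 in C59 at 269 and 235 bp past its end. Rack1, a small-subunit protein outside the rule of symbols, had 4.38 and 11.3 at 799 and 849 bp past its end, and Eif4a1, an initiation helicase, 5.06 and 10.1 at 673 and 693 bp. Of 30 ribosome biogenesis genes, 5 had such a peak in WT (16.7%), 6 in C59 (20.0%) and 5 in both (16.7%). Among them was the nucleolar protein gene Nop56 with 5.91 and 5.44. Of 78 mitochondrial ribosomal protein genes, 4 had it in WT (5.13%), 2 in C59 (2.56%) and 0 in both. The WT and C59 shares lay near those of all genes. Counting error allows the share in both lines to be up to 4.62%. The difference between the cytosolic and the mitochondrial ribosomal protein genes was not tested.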

How the data were processed

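Peaks of CTCF and Smc3 came from 4 of 8 libraries. The antibody label of the cohesin libraries names Smc3, while the labels' extraction protocol names Rad21; the former was followed. Per the submitters' processing notes the tools were the aligner Bowtie 0.12.8, the peak caller MACS2 2.1.0.20140616, and also deepTools 2.4.1, CASAVA and FastQC 0.10.1, and the build was mm10; the notes give no order of steps. The control library and the threshold for peaks are not given in the sources used here. The pileup signal, the p-value and q-value and the fold, a ratio over local background, were deposited by the authors for each peak on a linear scale.

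Genes came from RefSeq (GRCm38.p6, the chromosomes of mm10), and start and strand from its promoter table, which matched 60 of 80 members. No genome sequence was used. The far end is the annotated gene end opposite the start. A summit within 1 kb of both was given to the nearer. Local background is the sum of pileup and 1 over the fold, less 1. Smc3 was with CTCF when it overlapped a CTCF peak of its line by at least 1 bp. Python 3.11.15, numpy 2.4.6, pandas 2.3.3, scipy 1.17.1 and matplotlib 3.10.9 were used, and the overlap code was tested on simulated data.

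Members and lists were chosen with earlier results of these data known. Members were named by rank of WT fold: the 8 highest with Smc3 without CTCF in both lines and up to 4 in 1 line alone, the 6 highest with CTCF in both lines and up to 4 in WT alone, the 4 highest with CTCF and no Smc3, members with no peak, the paralogs, Rplp0, Rplp1, Rplp2 and Rpsa. Some members that the rule selects are not reported here. Further members, and genes of the comparison lists, were picked with their values in view, to complete counts or give examples. Of the promoters the rule selects, those of Rpl7a, Rpl11 and Rpl10l are not printed. Alternatives covered the window, the gene ends used, q-value, list length, overlap rule, chromosomes and paralogs.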

Additional observations from a re-analysis of the deposited data

How the results depend on the processing

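Of 84 alternative values for 10 results, 71 stayed within 1.5 times the reported count or within the interval of the reported percentage. Some of these could not move. The C59 Smc3 list is the shortest, so cutting lists to its length left it whole. The percentages of Smc3 peaks near the start already used members with a listed start alone. With each list cut to 25734 peaks, CTCF lay at 26 members in WT and 24 in C59, Smc3 at 18 in WT and 17 in both lines, and Smc3 without CTCF at 5 in WT, and 94.4% of members with WT Smc3 had it in C59; fewer peaks enter by construction. With summits near the start alone, the counts were 31 for WT Smc3, 20 for C59 Smc3 and 17 for both lines. For Smc3 without CTCF they were 14 in WT and 15 in C59, and 54.8% of members with WT Smc3 had it in C59. At the 60 members with a listed start, summits more than 1 kb from it are left out by construction. At the 20 members with no listed start, summits near either end were counted. With a window of 2.5 kb, 25.5% of WT Smc3 peaks at members lay near the start, since more peaks enter. Leaving out chromosomes 1, 8 and 11, or the paralogs, moved no result past these limits, nor did a q-value of 0.001 or another overlap rule with CTCF. Within them, an overlap of 50% of both peaks gave 41 members with Smc3 without CTCF in WT and 41 in C59, from 30 and 34. Shares of all genes were computed under an alternative only for Smc3 without CTCF at equal list length. For the other alternatives the excess over all genes was not tested. The start taken as the outer gene end, members with a listed start alone and the CTCF motif with 1 mismatch were chosen after seeing the data. No paired analysis was possible because each group has 1 library. Inputs, depth in reads and RNA levels were not used here.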
